A study of Homo sapiens with 6 samples.

Results

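The aminoacyl-tRNA synthetase genes of ENO1-knockdown and control gastric carcinoma cells are described here. They were taken by a rule on the gene symbol that used no expression value, though the family was chosen with earlier results of these data known. The rule took the symbols made of a 1-letter amino acid code, ARS and an optional 1 or 2, together with EPRS1, FARSA and FARSB. This gave 37 genes of the 30716 in the table. Of these, 17 end in 2 and encode mitochondrial enzymes, and the other 20 are called cytosolic. The cells were SNU16, a human gastric carcinoma line grown in medium with serum. The shENO1 group (3 libraries) had received by lentivirus an shRNA against ENO1, the gene of the glycolytic enzyme alpha-enolase, followed by puromycin selection of stably expressing cells. The shcon group (3 libraries) carried a non-targeting control shRNA. The submitters call the libraries of a group biological replicates but do not say whether they came from separate cultures or from 1 selected population, so the p-values measure only the spread between these libraries, which may be technical. The comparison asks which genes change in expression when ENO1 is reduced.

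An aminoacyl-tRNA synthetase joins an amino acid to the tRNA that reads its codons, the step that supplies the ribosome. Most amino acids have a pair of such enzymes in human cells, encoded by separate nuclear genes, one for the cytosol and the other for the mitochondrial matrix. Several cytosolic synthetase genes are known targets of ATF4, the transcription factor that is translated when amino acids are short or the endoplasmic reticulum is under stress, and ATF4 binds composite C/EBP-ATF elements whose core resembles TGATGNAA.

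The promoters of the synthetases were searched for these letters because such an element is a feature that the rule on symbols did not use. RefSeq promoters of GRCh38.p14, from 250 bases before to 50 bases after each gene's start, were found for 30 of the 37 genes. TGATGNAA, read on both strands (TTNCATCA on the opposite strand), occurred in 7 of 16 cytosolic genes with a promoter (43.8%, exact 95% interval 19.8% to 70.1%) and in 1 of 14 mitochondrial genes (7.14%, 0.181% to 33.9%). Over all 27305 genes with a promoter it occurred in 4.46%, and 3.62% of all 35116 windows of this length held it. These intervals cover counting error only. The 8 windows are printed 5′ to 3′ on the strand of the gene, with the match in capitals, and 7 of the 8 belong to cytosolic enzymes.
GARS1, chr7:30594834-30594863, plus strand: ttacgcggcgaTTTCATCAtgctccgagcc
CARS1, chr11:3057407-3057436, minus strand: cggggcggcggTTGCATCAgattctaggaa
MARS1, chr12:57488053-57488082, plus strand: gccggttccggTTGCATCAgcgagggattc
TARS1, chr5:33440956-33440985, plus strand: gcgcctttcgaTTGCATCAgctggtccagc
IARS1, chr9:92293692-92293721, minus strand: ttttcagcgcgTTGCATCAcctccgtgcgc
AARS1, chr16:70289675-70289704, minus strand: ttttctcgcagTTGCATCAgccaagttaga
NARS1, chr18:57621804-57621833, minus strand: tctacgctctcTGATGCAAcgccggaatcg
YARS2, chr12:32756076-32756105, minus strand: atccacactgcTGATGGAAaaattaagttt
The match lay close to the gene's start in most of them, and farther upstream in AARS1 and YARS2. In 6 cytosolic genes it also met the stricter TGATGCAA, which 1.08% of all genes with a promoter held. A match is a run of letters and not a measured binding site. AARS2, LARS1, VARS1, VARS2 and YARS1 were among those without a matched promoter.

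ENO1 itself was at 323, 312 and 387 FPKM in shcon replicates 1, 2 and 3 and at 99.5, 84.9 and 91.1 FPKM in the shENO1 replicates. FPKM count the fragments of a gene relative to its exon length and the depth of the library. Its log2 fold change (log2FC), the difference of mean log2(FPKM + 1) between shENO1 and shcon, was -1.88 (standard error, SE, 0.11, limma adjusted p = 0.000425), in the direction the labels give. The libraries held about 15572000 to 16963500 fragments, estimated from the steps between low values. Among markers of the labelled cell type, KRT8 and KRT18 were high, EPCAM and CDH1 were near 1 FPKM, and KRT19 was listed at 0 in 5 of the 6 libraries. The summed level of the 5 epithelial markers was 410 to 535 FPKM in shcon and 189 to 220 FPKM in shENO1 libraries. That of 3 endothelial markers was 9.32 to 16.4 and 3.87 to 5.00 FPKM, nearly all of it CDH5, and that of 3 fibroblast markers in the table was 11.2 to 18.9 and 7.04 to 8.24 FPKM. Of 2 leukocyte markers in the table, PTPRC was at or near 0. The part of these marker levels in the results was not tested, and in bulk RNA fewer cells of a type and less RNA per cell cannot be told apart.

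Cytosolic synthetase genes rose in shENO1 cells more often than they fell, while the mitochondrial genes that passed the test all fell. Of 20 cytosolic genes, 8 rose (GARS1, CARS1, MARS1, TARS1, SARS1, EPRS1, YARS1 and IARS1), 1 fell (FARSA) and 11 did not pass. Of 17 mitochondrial genes, 16 had a mean of at least 0.5 FPKM and were tested. None of these rose, 3 fell (TARS2, AARS2 and CARS2) and 13 did not pass. Over all 15181 genes tested, 15.1% were called higher and 14.4% lower at a limma adjusted p under 0.05, so the cytosolic share of 8 in 20 stood above the background and the mitochondrial share of 3 in 16 close to it. At an unadjusted p under 0.05, for which no share of all genes is given here, 1 mitochondrial gene was higher and 5 were lower. Limma-voom on estimated fragments also called none higher and 3 lower, where it called 18.1% of all genes higher and 16.2% lower. The median log2FC was 0.34 for cytosolic and -0.14 for mitochondrial genes, beside 0.029 for all genes tested. With the replicate number as a block, 10 cytosolic genes rose and 2 fell, and 1 mitochondrial gene, MARS2, rose, where 19.3% of all genes were called higher and 17.9% lower. NARS1 was among the added higher calls (adjusted p = 0.025), and VARS1 was the added lower one (adjusted p = 0.0245).

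**Figure D1:**
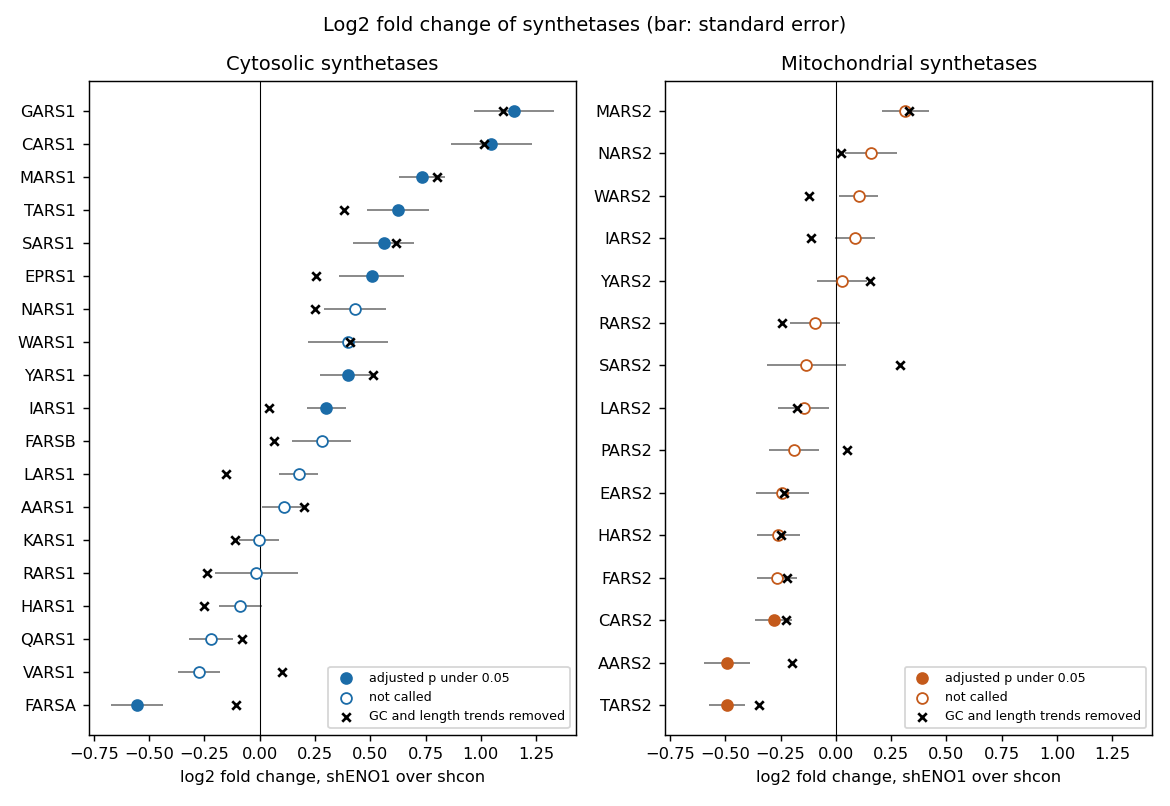
Log2FC of shENO1 over shcon for 19 cytosolic (left) and 15 mitochondrial (right) synthetases, with bars for the standard error, filled points for an adjusted p under 0.05 and crosses for the value after the GC content and exon length trends were removed. Cytosolic values run from -0.56 for FARSA to 1.15 for GARS1 and mitochondrial values from -0.49 for TARS2 to 0.31 for MARS2.

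Several features of the libraries bear on these counts. Shcon replicate 3 was the highest control, and so the nearest to the shENO1 libraries, for 8 of the 8 cytosolic genes that rose. It was also the highest for 17 of 20 cytosolic and 9 of 16 tested mitochondrial genes in either direction and for 39.8% of all genes tested, and where a gene fell, as TARS2 did, this placed it farther from the shENO1 libraries. Without it, 12 cytosolic genes rose and 3 fell, and 1 mitochondrial gene rose and 3 fell, where 19.9% of all genes were called higher and 18.4% lower. When shcon replicate 1, or replicate 2 or 3 of shENO1, was left out, only 3 cytosolic genes rose (GARS1, CARS1 and MARS1), and without shcon replicate 2 these and TARS1. All genes lost calls in these fits as well, with 6.11%, 4.96% and 6.30% called higher in the first 3 and 10.0% without shcon replicate 2. Fold changes also followed the GC content of the transcript, with a Spearman's rho of -0.699 across 7441 genes of at least 5 FPKM, which share the same 6 libraries. After trends in GC content and exon length were removed from each library, 4 cytosolic genes rose (GARS1, CARS1, MARS1 and SARS1) and none fell, and 1 mitochondrial gene rose (MARS2) and 3 fell, among them TARS2 and HARS2. The background was then 10.7% of genes called higher and 10.7% lower. With these trends removed and shcon replicate 3 left out as well, a setting chosen after seeing the data, 12 cytosolic genes rose and none fell, where 14.4% of all genes were called higher and 14.0% lower. Under all 19 alternative fits, GARS1, CARS1 and MARS1 rose and TARS2 fell, and no other synthetase kept its call throughout.

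GARS1 (ENSG00000106105, chromosome 7 from 30580533 to 30634033 of GRCh38), which encodes glycyl-tRNA synthetase for both cytosol and mitochondria, had the largest fold change. It was at 7.35, 7.05 and 12.1 FPKM in the shcon replicates and at 19.4, 20.5 and 21.0 FPKM in the shENO1 replicates. The groups did not overlap, and shcon replicate 3 was 1.68 times the mean of the other controls. The mean rose from 8.84 ± 2.84 to 20.3 ± 0.834 FPKM (SD, n = 3 each), a log2FC of 1.15 (SE 0.18, adjusted p = 0.00584), or 1.38 without shcon replicate 3. KARS1, the lysyl-tRNA synthetase and the other gene that serves both compartments, was at 52.1, 49.1 and 58.5 FPKM in shcon and 53.7, 52.0 and 53.3 FPKM in shENO1 cells. Its groups overlapped and its log2FC was -0.0030 (SE 0.091, adjusted p = 0.985). It was 0.086 under quantile normalization and 0.066 without shcon replicate 3, so no direction can be given.

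CARS1 (chromosome 11 from 3000922 to 3057613), the cytosolic cysteinyl-tRNA synthetase, was at 5.57, 4.79 and 8.78 FPKM in shcon and 14.4, 13.3 and 13.9 FPKM in shENO1 cells. Its groups did not overlap, and its log2FC was 1.05 (SE 0.18, adjusted p = 0.00746). MARS1 (chromosome 12 from 57475445 to 57517569), the cytosolic methionyl-tRNA synthetase, which charges both initiator and elongator tRNA, was at 12.2, 11.95 and 14.9 FPKM in shcon and 23.1, 22.3 and 21.5 FPKM in shENO1 cells. It too had no overlap, with a log2FC of 0.74 (SE 0.10, adjusted p = 0.00453). The 3′ end of MARS1 shares 982 bases with DDIT3, a stress response gene on the opposite strand, which rose as well (log2FC 1.07, adjusted p = 0.0159, or at most 0.0590 with a library left out). The sources used here do not say whether counting used strand, so reads in that stretch cannot be told apart. GARS1 overlaps 14754 bases of its divergent transcript GARS1-DT, which was at 1.28 to 1.89 FPKM in the 6 libraries.

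TARS1, the cytosolic threonyl-tRNA synthetase, was the most abundant synthetase transcript per length. It was at 92.6, 90.8 and 129 FPKM in shcon and 154, 158 and 166 FPKM in shENO1 cells, a log2FC of 0.62 (SE 0.14, adjusted p = 0.0160). With the trends removed its log2FC was 0.38 (adjusted p = 0.0582). SARS1, the seryl-tRNA synthetase, was at 29.8, 31.5 and 43.2 FPKM in shcon and 49.9, 50.8 and 53.0 FPKM in shENO1 cells, a log2FC of 0.56 (SE 0.14, adjusted p = 0.0221). Neither gene's groups overlapped, and shcon replicate 3 was again the highest control of both. SARS1 lost its call without shcon replicate 1 or 2 or without shENO1 replicate 2 or 3 (highest adjusted p = 0.0819), and TARS1 without shcon replicate 1 or shENO1 replicate 2 or 3 (highest adjusted p = 0.0662).

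EPRS1 encodes a fused glutamyl- and prolyl-tRNA synthetase and was at 54.4, 55.1 and 77.7 FPKM in shcon and 80.9, 92.9 and 90.3 FPKM in shENO1 cells. The gap between shcon replicate 3 and shENO1 replicate 1 was small beside the spread of the controls, and the log2FC of 0.51 (SE 0.15, adjusted p = 0.0365) became 0.25 with the trends removed (adjusted p = 0.145). YARS1, the tyrosyl-tRNA synthetase, was at 10.8, 10.95 and 14.8 FPKM in shcon and 16.5, 15.6 and 16.5 FPKM in shENO1 cells. It passed the test narrowly (log2FC 0.40, standard error 0.13, adjusted p = 0.0488), and kept the call in only 1 of the 6 fits with a library left out, the fit without shcon replicate 3. IARS1, the isoleucyl-tRNA synthetase, had a log2FC of 0.30 (adjusted p = 0.0370) that became 0.043 with the trends removed (adjusted p = 0.625). Leaving out shcon replicate 1 or 2 or shENO1 replicate 2 or 3 ended the calls of EPRS1 (highest adjusted p = 0.127) and IARS1 (highest adjusted p = 0.146).

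**Figure D2:**
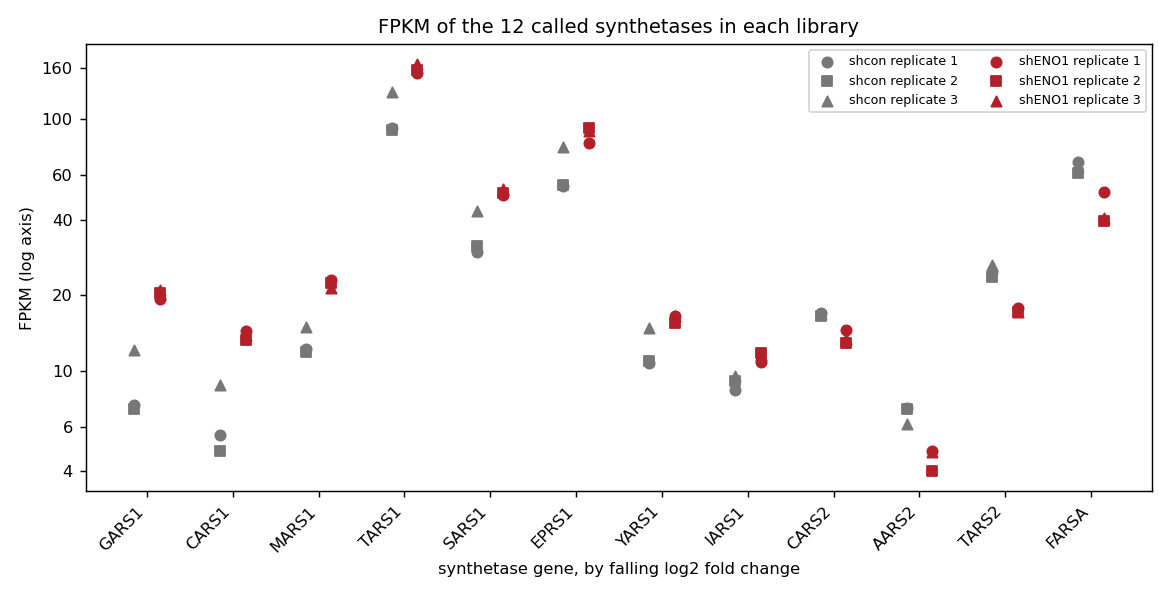
FPKM on a log axis of the 12 synthetases called higher or lower, with grey points for shcon and red points for shENO1 libraries and a marker shape for each replicate. The groups do not overlap for any of the 12, and shcon replicate 3 (grey triangle) is the control nearest to the shENO1 libraries for each of the 8 genes that rose.

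FARSA, the catalytic alpha subunit of the cytosolic phenylalanyl-tRNA synthetase, was the cytosolic gene that fell. It was at 67.7, 61.0 and 64.5 FPKM in shcon and 51.4, 39.5 and 40.5 FPKM in shENO1 cells, without overlap, a log2FC of -0.56 (SE 0.12, adjusted p = 0.0131). FARSB, the beta subunit of the same enzyme, was at 8.36, 7.88 and 11.2 FPKM in shcon and 10.3, 11.4 and 11.9 FPKM in shENO1 cells, with overlap, a log2FC of 0.28 (adjusted p = 0.148). The subunits assemble in equal numbers, and this pair was singled out after its values were seen. The log2 ratio of FARSB to FARSA was higher in shENO1 cells by 0.84 (SE 0.22, exact permutation p = 0.1, two-sided, the smallest that 3 libraries against 3 allow). The transcripts differ in GC content, 60.3% for FARSA and 41.6% for FARSB, and with the trends removed the difference was 0.17 (SE 0.064, exact permutation p = 0.2). FARSA then had a log2FC of -0.11 (adjusted p = 0.214). It also lost its call without shcon replicate 1 or shENO1 replicate 2 or 3 (highest adjusted p = 0.0626), while FARSB passed without shcon replicate 3 (adjusted p = 0.0138).

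The other cytosolic genes that did not pass ran from 0.43 for NARS1 to -0.27 for VARS1 on the log2 scale. NARS1 (asparagine) missed the threshold narrowly (adjusted p = 0.0531). WARS1 (tryptophan) had 0.40. Both had shcon replicate 3 among the shENO1 values, and without that library both passed (adjusted p = 0.00495 and 0.00448). LARS1 (leucine) had 0.18, or -0.15 with the trends removed. AARS1 (alanine) had 0.11, RARS1 (arginine) -0.014, HARS1 (histidine) -0.087 and QARS1 (glutamine) -0.22. The value for VARS1 (valine) turned to 0.10 with the trends removed, and that of RARS1 was 0.21 without shcon replicate 3. QARS1 and VARS1 passed as lower without shcon replicate 3 (adjusted p = 0.0314 and 0.0382), VARS1 also without shENO1 replicate 1 (adjusted p = 0.0343).

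In the mitochondrial class, TARS2, the threonyl-tRNA synthetase of the matrix (chromosome 1 from 150487364 to 150507609), was at 24.7, 23.6 and 26.3 FPKM in shcon and 17.8, 17.1 and 17.2 FPKM in shENO1 cells. The groups lay far apart, and the log2FC was -0.49 (SE 0.082, adjusted p = 0.00669), or -0.35 with the trends removed (adjusted p = 0.0102). AARS2, the alanyl enzyme, was at 7.11, 7.06 and 6.16 FPKM in shcon and 4.82, 4.003 and 4.78 FPKM in shENO1 cells, a log2FC of -0.49 (SE 0.10, adjusted p = 0.0125). Its groups did not overlap either. CARS2, the cysteinyl enzyme, was at 17.0, 16.5 and 16.8 FPKM in shcon and 14.6, 12.9 and 13.4 FPKM in shENO1 cells, a log2FC of -0.28 (SE 0.084, adjusted p = 0.0392). With the trends removed neither passed (-0.20, adjusted p = 0.115 for AARS2, and -0.23, adjusted p = 0.128 for CARS2). AARS2 also lost its call without shcon replicate 1 or shENO1 replicate 2 (highest adjusted p = 0.0605), and CARS2 without shcon replicate 1 or 2 or shENO1 replicate 2 or 3 (highest adjusted p = 0.166).

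MARS2, the mitochondrial methionyl enzyme, stood at the other end of its class. It was at 4.44, 4.36 and 5.404 FPKM in shcon and 5.63, 6.06 and 6.68 FPKM in shENO1 cells, without overlap, a log2FC of 0.31 (SE 0.11, adjusted p = 0.0617). It passed with the trends removed (0.33, adjusted p = 0.0211), with the replicate block (adjusted p = 0.026) and without shcon replicate 3 (adjusted p = 0.0188). FARS2 (phenylalanine) had -0.27, HARS2 (histidine) -0.26, EARS2 (glutamate) -0.24, PARS2 (proline) -0.19, LARS2 (leucine) -0.15 and SARS2 (serine) -0.13. RARS2 (arginine) had -0.095, YARS2 (tyrosine) 0.027, IARS2 (isoleucine) 0.087, WARS2 (tryptophan) 0.10 and NARS2 (asparagine) 0.16. With the trends removed, SARS2 and PARS2 turned positive (0.29 and 0.052) and WARS2 and IARS2 negative (-0.12 and -0.11). IARS2 was the most abundant mitochondrial synthetase transcript per length, at 70.6 to 82.1 FPKM. VARS2 (valine), the gene below the filter, was at 0.130 to 0.275 FPKM, from at most 37.9 estimated fragments, and SARS2 had at most 63.6, so that changes of these genes were hard to detect at this depth.

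Counted without a model, 9 cytosolic genes were higher in every shENO1 than in every shcon library and 2 were lower, and 1 mitochondrial gene was higher and 6 were lower. Over all genes tested, 25.0% were higher and 21.5% lower without overlap. LARS1 was the gene added to the 8 cytosolic genes that rose. The summed FPKM of the cytosolic genes was 593, 575 and 735 in the shcon and 745, 753 and 770 in the shENO1 replicates. That of the mitochondrial genes was 206, 206 and 231, and 201, 204 and 207. The ratio of the sums was 2.87, 2.79 and 3.18 in shcon and 3.71, 3.69 and 3.72 in shENO1 cells, so that the 3 shENO1 libraries lay close together and above each control.

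Cytosolic enzymes were then compared with the mitochondrial enzymes for the same amino acid, as the log2 ratio within a library. This was done for 15 pairs. EPRS1 stands in 2 of them, for glutamate and proline, the phenylalanine pair takes the mean of FARSA and FARSB, and the valine pair was left out because VARS2 was below the filter. The ratio was higher on average in shENO1 cells for 15 of 15 pairs, and 11 of these did not overlap between the groups. Of single genes, 25.0% were higher without overlap, and no such share over other pairs of genes is given here. The pairs share the same 6 libraries, so they are not separate observations. The largest shift was that of cysteine, where CARS1 over CARS2 had log2 ratios of -1.45, -1.59 and -0.86 in shcon and -0.013, 0.045 and 0.046 in shENO1 cells. CARS1 was thus below CARS2 in each control and level with it after knockdown, a difference of 1.33 (SE 0.22). Threonine followed, with 1.86, 1.90 and 2.25 in shcon and 3.04, 3.13 and 3.20 in shENO1 cells, a difference of 1.12 (SE 0.13). The differences of the other pairs ran from 0.75 for glutamate to 0.080 for arginine. Arginine, phenylalanine, tryptophan and serine were the pairs that overlapped. For the 11 others the two-sided exact permutation p was 0.1, the smallest this design allows, and 0.136 after Benjamini-Hochberg adjustment over the 15 pairs. No pair could therefore pass a threshold of 0.05. With the trends removed the histidine pair was at -0.005, and the other 14 stayed positive.

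**Figure D3:**
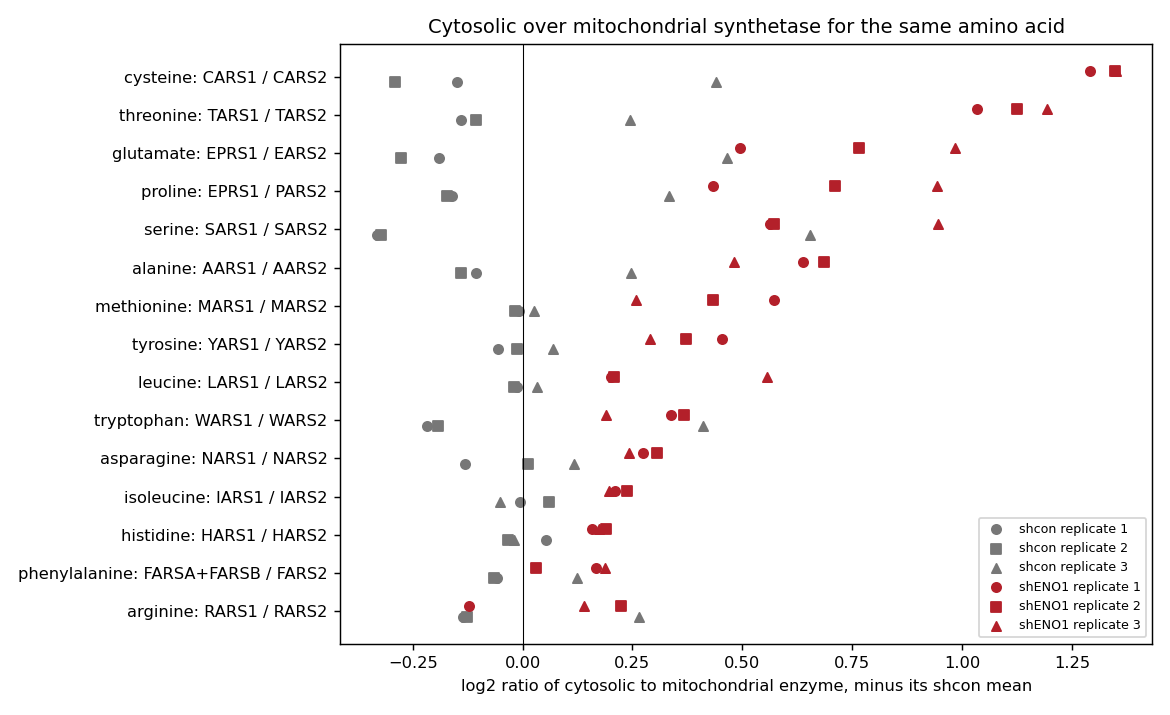
Log2 ratio of the cytosolic to the mitochondrial synthetase for each of 15 amino acids, minus its mean over the shcon libraries, with grey points for shcon, red points for shENO1 libraries and a marker shape for each replicate. The shENO1 points lie to the right of all shcon points for 11 pairs, most widely for cysteine and threonine, and shcon replicate 3 lies furthest to the right of the controls in most pairs.

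The genes that rose all belonged to the cytosolic synthetases usually listed as ATF4 targets. That list has 12 members, of which 8 rose, none fell and 4 did not pass (NARS1, WARS1, LARS1 and AARS1). Over all genes tested, 15.1% were called higher and 14.4% lower. The list was written with earlier results of these data known, so the split by it is not independent of these fold changes. Among the 12, the median log2FC was 0.47 and 12 of 12 were positive. At an unadjusted p under 0.05, for which no share of all genes is given here, 9 were higher and none was lower. Limma-voom also called 9 higher and none lower, where it called 18.1% of all genes higher and 16.2% lower. The other 8 cytosolic genes had a median of -0.051, with none higher and 1 lower (FARSA). At an unadjusted p under 0.05, none of these was higher and 2 were lower. Limma-voom called none higher and 1 lower. With the trends removed, 4 of the 12 and none of the 8 rose, with medians of 0.39 and -0.094, beside 10.7% of all genes. Without shcon replicate 3, 10 of the 12 and 2 of the 8, FARSB among them, rose, and 3 of the 8 fell. That fit called 19.9% of all genes higher and 18.4% lower. The TGATGNAA match was in 7 of the 10 listed genes with a promoter (70.0%) and in 0 of the 6 cytosolic genes outside the list (exact 95% upper limit 45.9%). The list was drawn up from knowledge of ATF4 targets, with earlier results of these data also known. For some of these targets the element is part of the reason, so the match is not independent of the list.

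The cytosolic class was also divided by complex and by structural class. The multi-synthetase complex holds 8 of these enzymes, among them EPRS1, IARS1, LARS1, MARS1, QARS1, RARS1 and KARS1, on a scaffold. Of them 3 rose and none fell, with a median of 0.24, and limma-voom gave the same counts. At an unadjusted p under 0.05, for which no share of all genes is given here, the counts were also 3 and none. Of the 12 outside the complex 5 rose and 1 fell, with a median of 0.40. Over all genes, 15.1% were called higher and 14.4% lower, or 18.1% and 16.2% by limma-voom. Of the 8, 1 rose with the trends removed, at a median of -0.019, and of the 12, 3 rose at a median of 0.31. The share of all genes called higher was then 10.7%. Without shcon replicate 3, 4 of the 8 rose and 1 fell, where 19.9% of all genes were called higher and 18.4% lower. Enzymes of class I, whose catalytic domain is a Rossmann fold, and of class II, built on an antiparallel sheet, had like medians of 0.35 and 0.33 in 10 genes each (EPRS1, which has both, is counted with class I). Of class I, 5 rose, and of class II, 3 rose and 1 fell, beside 15.1% of all genes called higher and 14.4% lower.

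GC content differed among the called genes. The 8 cytosolic genes that rose had transcripts of 43.2% to 55.7% GC, those that fell 54.6% to 60.3%. Over the 16 mitochondrial genes the Spearman's rho of log2FC with GC content was -0.71, and over the 20 cytosolic genes -0.16. With the trends removed these were 0.082 and 0.29. The genes share libraries, so these are descriptions without a p. In the bins of all genes on either side of GARS1 (48.6% GC), at median GC contents of 46.9% and 49.9%, the upper quartile of log2FC was 0.25 and 0.18, beside 1.15 for GARS1. The median difference between the classes, 0.48, was 0.34 with the trends removed.

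**Figure D4:**
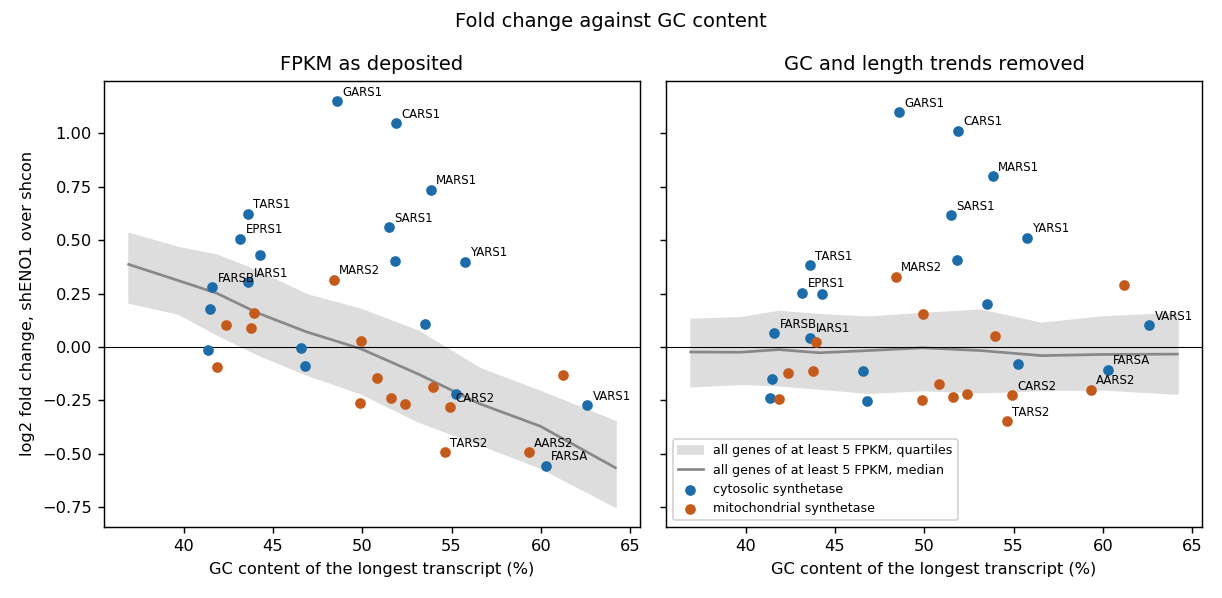
Log2 fold change against the GC content of the longest transcript for 19 cytosolic (blue) and 15 mitochondrial (orange) synthetases, from FPKM as deposited (left) and after removal of both trends (right), with the median (line) and quartiles (band) of genes of at least 5 FPKM in 10 bins of GC content. The median of all genes falls from 0.39 in the lowest bin to -0.57 in the highest at left and is nearly flat at right, where GARS1, CARS1 and MARS1 keep values of 1.10, 1.01 and 0.80.

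Genes that act with the synthetases were counted from lists written with earlier results of these data known. Of the 3 scaffold proteins of the complex and XPOT, the exporter of tRNA from the nucleus, XPOT rose and none fell. XPOT was at 33.7, 34.9 and 43.7 FPKM in shcon and 55.5, 62.9 and 61.2 FPKM in shENO1 cells, without overlap, a log2FC of 0.67 (SE 0.12, adjusted p = 0.00764), or 0.34 with the trends removed (adjusted p = 0.0304). The scaffold genes AIMP1 and EEF1E1 had 0.19 and 0.31, and AIMP2 had -0.22. EEF1E1 passed with the replicate block (adjusted p = 0.0234) and without shcon replicate 3 (adjusted p = 0.0273). At an unadjusted p under 0.05, for which no share of all genes is given here, 2 genes of this list were higher and 1 was lower. Limma-voom called 1 higher and none lower, where it called 18.1% of all genes higher and 16.2% lower. Of 7 tested genes for synthetase-like proteins, editing and selenocysteine tRNA, none was called in either direction, nor by limma-voom. At an unadjusted p under 0.05, again without a share of all genes, none was higher and 1 was lower. ANKRD16 passed as lower with the replicate block and without shcon replicate 3 (adjusted p = 0.0335 and 0.0339). Of these, EEFSEC, the elongation factor for selenocysteine, was at 6.85 to 9.26 FPKM with a log2FC of -0.059, or 0.42 with the trends removed (adjusted p = 0.0147). TARS3 had -0.22, without overlap, and passed as lower with the trends removed (-0.39, adjusted p = 0.0214). With the trends removed, 1 gene of the list was thus higher and 1 lower, where 10.7% of all genes were called in each direction. DTD2, a deacylase that edits mischarged tRNA, was at 2.60 to 3.06 FPKM with -0.080.

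Of 15 tested genes of mitochondrial tRNA charging, tRNA maturation and translation, 2 fell and none rose, with a median of 0.0029. The share of 2 in 15 that fell lay close to the 14.4% of all genes. At an unadjusted p under 0.05, for which no share of all genes is given here, 1 was higher and 4 were lower. Limma-voom called none higher and 3 lower, where it called 16.2% of all genes lower. Without shcon replicate 3 the list had 3 higher (QRSL1, GATC and MTIF2) and 2 lower. TUFM, the mitochondrial elongation factor that delivers charged tRNA, was at 122, 120 and 128 FPKM in shcon and 101, 80.4 and 87.6 FPKM in shENO1 cells, a log2FC of -0.46 (SE 0.10, adjusted p = 0.0158). PUS1, a tRNA pseudouridine synthase, was at 10.3, 9.89 and 9.74 FPKM in shcon and 8.50, 7.21 and 6.46 FPKM in shENO1 cells, a log2FC of -0.39 (SE 0.11, adjusted p = 0.0295). Neither had overlapping groups, and neither passed with the trends removed (-0.094 and -0.14, adjusted p = 0.277 and 0.201). Both lost the call without shcon replicate 1 or shENO1 replicate 2 or 3, PUS1 also without shcon replicate 2 (highest adjusted p = 0.0742 for TUFM and 0.109 for PUS1). QRSL1, GATB and GATC, which form the mitochondrial enzyme that makes glutaminyl-tRNA in place of a separate synthetase, had 0.24, -0.27 and 0.24 and did not pass. QRSL1 and GATC did as higher without shcon replicate 3 (adjusted p = 0.0306 and 0.0162). GATB passed as lower with the trends removed (-0.51, adjusted p = 0.0249) and by limma-voom (-0.43, adjusted p = 0.0230). With the trends removed the list had none higher and 2 lower, GATB and GFM2 (-0.25, adjusted p = 0.0329). That fit called 10.7% of all genes lower.

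Of 20 tested regulators and targets of the amino acid response, 12 rose and 1 fell (SLC3A2), with a median log2FC of 0.65. Over all genes tested, 15.1% were called higher and 14.4% lower. With the trends removed the counts were also 12 and 1, where 10.7% of all genes were called in each direction. PPP1R15A then took the place of EIF2AK4 among the higher genes (adjusted p = 0.00947 and 0.19). EIF2AK4 also lost its call with any library left out (highest adjusted p = 0.164). With the replicate block ATF3 and PPP1R15A rose and SLC7A5 fell as well (adjusted p = 0.0376, 0.0498 and 0.0239). That fit called 19.3% of all genes higher and 17.9% lower. ATF4 itself was among those that rose (0.46), but not without shcon replicate 1 or 2 or shENO1 replicate 2 or 3 (highest adjusted p = 0.0882), and SLC3A2 lost its call without the same libraries (highest adjusted p = 0.104). The cystine transporter SLC7A11 was at 4.93, 5.06 and 5.99 FPKM in shcon and 23.7, 28.5 and 26.7 FPKM in shENO1 cells, a log2FC of 2.11 (SE 0.11, adjusted p = 0.000241). CHAC1, which degrades glutathione, was at 1.56, 0.885 and 2.99 FPKM in shcon and 13.2, 8.74 and 10.1 FPKM in shENO1 cells, a log2FC of 2.10 (SE 0.27, adjusted p = 0.00376). These levels do not overlap, and shcon replicate 3 was the highest control for both, as it was for the synthetases that rose. STC2, a secreted stanniocalcin, had 1.83 and CEBPG, a partner of ATF4 in binding DNA, had 1.28.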

How the data were processed

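RNA of SNU16 cells was sequenced in 6 libraries, 3 shcon and 3 shENO1, grouped by their titles. The authors deposited 1 table of FPKM values per Ensembl gene, and no column of it was left unmapped. The submitters' processing notes name cutadapt, featureCounts, MultiQC and GRCh38. How reads were aligned, with which annotation and strand setting they were counted, and how FPKM were computed is not given in the sources used here. The steps of low FPKM values gave estimated depths of 15572000 to 16963500 fragments, with exon lengths of GENCODE release 29. With these, 76.5% to 77.3% of a library's values up to 100 fragments came out whole (within 0.05), so no count test was the main one. FPKM corrects for depth and length, not for GC content.

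The 15181 genes that averaged 0.5 FPKM or more were fitted in limma 3.58.1, under R 4.3.3 (lmFit, eBayes with a variance trend) on log2(FPKM + 1), which understates changes of low genes. Benjamini-Hochberg adjustment of p ran over all genes tested, and a gene was called at an adjusted p under 0.05. In an alternative, trends over GC content and exon length (natural splines, 4 degrees of freedom each, fitted on 7374 genes of at least 5 FPKM outside the lists) were removed from each library for the 15031 genes with both values, which would also remove biology that follows them. Other alternatives were pseudocounts of 0.1 and 0.5, other filters, quantile normalization, median-of-ratios scaling, limma-voom, robust estimation, a replicate block, each library left out in turn, and GARS1 and KARS1 left out of the class counts. Libraries of the same number deviated together from the means of their groups (correlations of 0.230, 0.118 and 0.256 over all genes tested). The replicate block therefore took the numbers to pair the libraries, while the main fit and the permutation tests did not. The labels do not describe pairs. The steps were tested on simulated data. Python 3.11.15 with pandas 2.3.3, scipy 1.17.1 and matplotlib 3.10.9 was used for the rest. Promoters came from RefSeq, and exact binomial (Clopper-Pearson) intervals are given at 95%.

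The members and lists were chosen with earlier results of these data known. The rule for names gave every synthetase a value, and values in all libraries to GARS1, KARS1 and the 8 cytosolic and 4 mitochondrial genes with the largest absolute fold changes, called ones first. From a partner list it took at most 4 called genes, by size of change, or the 2 of highest FPKM where none was called. The class counts cover all members, of which 2 are not reported singly here. FARSB and the members named by their role besides these were chosen after their values were seen.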

Additional observations from a re-analysis of the deposited data

How the results depend on the processing

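The 8 cytosolic genes called higher numbered 3 with no filter and 4 with the GC content and exon length trends removed. They numbered between 3 and 12 with each library left out in turn. Of all genes, 2289 of 15181 were called higher in the main fit and 1402 of 30716 with no filter. With the trends removed 1602 of 15031 were, and with a library left out 753 to 3028 of 15181. The 1 cytosolic gene called lower became 2 under median-of-ratios scaling and under the replicate block, and 0 with the trend over GC content alone or both trends removed, also with the block or without shcon replicate 3. It ranged from 0 to 3 with a library left out. Of all genes, 2389 of 15181 were called lower under median-of-ratios scaling and 2711 under the block, against 2188 in the main fit. With the GC content trend alone or both trends removed, 1400 and 1603 of 15031 were. With both removed, the block gave 1553 and leaving out shcon replicate 3 gave 2106. With a library left out, 756 to 2799 of 15181 were called lower. Mitochondrial genes called higher numbered 1 with a filter of at least 5 FPKM, with the trends removed and under the replicate block with and without these trends, 2 with the trends removed and shcon replicate 3 left out, and 0 to 1 with a library left out. Those called lower numbered 1 under the block with the trends removed and 1 to 3 with a library left out. Of all genes, 1684 of 7456 were called higher with a filter of at least 5 FPKM and 2927 of 15181 under the block. With both trends removed, 1628 of 15031 were called higher under the block and 2168 without shcon replicate 3. Of the partner genes, 13 were called higher and 3 lower, beside 15.1% and 14.4% of all genes. Partner genes called lower numbered 1 with no filter and 5 under limma-voom, the replicate block, and the block with the trends removed. They numbered 7 with the trends removed and shcon replicate 3 left out, and 0 to 5 with a library left out. Of all genes, 1302 of 30716 were called lower with no filter and 2437 of 15031 by limma-voom, with the other settings as given above. The median difference between the classes, 0.476, was 0.344 with a filter of at least 5 FPKM, 0.340 with the trend over GC content or both trends removed, also under the block, and 0.358 to 0.629 with a library left out. The cause of these shifts was not tested. The filters also change the number of genes tested, and the fits with a library left out rest on fewer libraries.

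With only the 250 bases before the start, TGATGNAA was in 3.89% of all genes, 18.8% of cytosolic synthetases and 30% of the ATF4 list. The stricter TGATGCAA was in 1.08% of all genes and 0% of mitochondrial synthetases.

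Some genes without a call changed sign. With both trends removed, under the block as well, LARS1 was at -0.152, VARS1 at 0.101, WARS2 at -0.122, IARS2 at -0.113, SARS2 at 0.289, PARS2 at 0.052 and EEFSEC at 0.422, and the histidine pair at -0.005. With the GC content trend alone removed, LARS1 was at -0.100, VARS1 at 0.184, NARS2 at -0.036, WARS2 at -0.145, IARS2 at -0.112, SARS2 at 0.269, EEFSEC at 0.341 and the leucine pair at -0.001. With both trends removed and shcon replicate 3 left out, LARS1 was at -0.124, VARS1 at 0.161, WARS2 at -0.171, IARS2 at -0.097, SARS2 at 0.154, PARS2 at 0.022 and EEFSEC at 0.368. KARS1 was at 0.086 and RARS1 at 0.108 under quantile normalization, and KARS1 at 0.002 under limma-voom. With a library left out, KARS1 ranged from -0.058 to 0.066, RARS1 from -0.142 to 0.206, YARS2 from -0.030 to 0.132 and EEFSEC from -0.181 to 0.013. Of the 641 values of synthetases under an alternative, 522 kept their direction and side of the threshold, 27 passed it newly, 58 no longer passed and 34 changed sign. Beyond NARS1, VARS1, MARS2, EEF1E1, ANKRD16, ATF3, PPP1R15A and SLC7A5, the replicate block changed no call of a gene named here. The depth limits VARS2 and SARS2 most.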
